A study of Homo sapiens with 18 samples.

Results

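The box C/D partner set comprises 10 genes: NOP56, NOP58, SNU13, NUFIP1, ZNHIT3, ZNHIT6, PIH1D1, RPAP3, RUVBL1 and RUVBL2. They were taken by gene symbol from a table of 17017 genes, and all 10 were found. The rule used no measured value, but earlier results of these data were known when the set was chosen. Each gene was read out in cytoplasmic RNA and in ribosome footprints of MDA-MB-231 cells, an established triple-negative breast carcinoma line. The cells carried lentiviral pLKO.1 vectors that expressed either a hairpin RNA directed at fibrillarin (gene symbol FBL) or a scramble sequence. The groups were the control labelled SC, read here as the scramble, and the hairpin groups labelled SH2 and SH3, with 3 replicates of RNA (IN) and 3 of footprints (RPF) in each, 18 libraries in all. Per the labels' protocols, all groups were incubated with virus for 48 hours, kept in puromycin at 1 µg per ml for 96 hours, and treated with cycloheximide, which stalls elongating ribosomes, at 100 µg per ml for 5 minutes before lysis. The labels do not say which of the hairpins called knockdown 1 and knockdown 2 is SH2 and which is SH3, nor whether single clones were grown.

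Box C/D small nucleolar ribonucleoproteins (snoRNPs) carry a guide RNA that pairs with ribosomal RNA and places a 2'-O-methyl group on the paired nucleotide. The enzyme is fibrillarin, which sits on the guide RNA with NOP56, NOP58 and SNU13. The particle does not form on its own: NUFIP1, ZNHIT3 and ZNHIT6 hold early intermediates, and the R2TP complex of PIH1D1, RPAP3, RUVBL1 and RUVBL2, which works with the chaperone HSP90, loads the NOP proteins. Many box C/D snoRNAs are cut from introns of host genes, among them NOP56 and NOP58 themselves.

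The genes with a footprint change past the test in SH2 were NOP56, NUFIP1 and ZNHIT6, and their upstream sequences are shown to set these genes side by side. RefSeq promoter windows (GRCh38.p14) matched 7 of the 10 genes, with 9 windows among 35116. The sequences are the 250 bases upstream of the annotated start, read along the gene, at chr20:2652382-2652631 on the plus strand (NOP56), chr13:44989472-44989721 on the minus strand (NUFIP1) and chr1:85708434-85708683 on the minus strand (ZNHIT6). Capitals mark matches on either strand to 6 motifs: the E-box CACGTG, the NF-Y type box CCAAT, the GC box GGGCGG, the TATA box TATAAA, the ETS core CCGGAA and the CRE core TGACGT.
NOP56: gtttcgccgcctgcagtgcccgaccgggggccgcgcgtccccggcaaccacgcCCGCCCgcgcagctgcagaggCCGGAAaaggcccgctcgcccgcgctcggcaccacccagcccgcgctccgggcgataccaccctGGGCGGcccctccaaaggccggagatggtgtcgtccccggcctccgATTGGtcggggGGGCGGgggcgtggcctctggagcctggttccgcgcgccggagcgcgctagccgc
NUFIP1: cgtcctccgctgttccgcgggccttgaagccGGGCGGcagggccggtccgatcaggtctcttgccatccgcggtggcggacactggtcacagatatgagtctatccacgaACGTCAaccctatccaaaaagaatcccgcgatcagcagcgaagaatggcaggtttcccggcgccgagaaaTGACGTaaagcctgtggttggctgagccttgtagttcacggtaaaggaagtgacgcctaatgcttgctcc
ZNHIT6: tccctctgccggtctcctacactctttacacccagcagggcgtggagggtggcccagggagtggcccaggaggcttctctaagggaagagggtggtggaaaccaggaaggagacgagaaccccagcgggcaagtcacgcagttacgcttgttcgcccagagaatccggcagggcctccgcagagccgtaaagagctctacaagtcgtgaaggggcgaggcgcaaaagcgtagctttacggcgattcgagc
The NOP56 window held 1 CCAAT match on the reverse strand, 66 bases upstream, 3 GC boxes at 197, 112 and 55 bases and 1 ETS core at 176 bases, and no matches overlapped. NUFIP1 held 1 GC box at 219 bases and 2 CRE cores at 140 and 70 bases, and ZNHIT6 held none of the 6 motifs. Among all windows, 32.0% held CCAAT, 42.6% the GC box, 14.5% the ETS core, 7.1% the CRE core, 10.7% TATAAA and 6.3% the E-box. The E-box, a sequence bound by MYC, was in 0 of the 9 windows of these genes. G and C made up 78.0% of the NOP56 sequence, 58.4% of NUFIP1 and 61.2% of ZNHIT6, against a median of 58.0%. These matches describe the letters alone, since no binding was measured.

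Library totals ran from 23469830 to 27629488 counts for RNA and from 1662705 (SH3 replicate 1) to 6098648 (SC replicate 1) for footprints, so footprint values carry more counting error. Levels are given as CPM, counts per 1000000 counts of a library scaled by TMM within its kind, and translational efficiency (TE) as footprint CPM per RNA CPM of the same treatment and number. Per the labels' protocols both were taken from one lysate, but their deviations from the group means ran together (correlation over 0.1) in only 5 of 9 such pairs (-0.50 to 0.51), and the TE test does not use the number. CPM is relative to the library, so a change in the RNA content of the cells cannot be told apart from a change of the gene. Levels are not compared between genes, since gene lengths were not used. The percentiles of footprints per RNA given below do compare genes. They may depend on which part of each gene was counted, which is not given in the sources used here. FBL, the targeted gene, was low in every hairpin library. Its RNA was 388 ± 36.4 CPM in SC (SD, n = 3), 1.26, 4.52 and 11.2 CPM in SH2, and 3.36, 4.15 and 2.95 CPM in SH3. VIM and CD44, markers of this mesenchymal-like line, were at 4081 to 7223 and 256 to 556 CPM in the RNA libraries. Of the genes listed as low or absent in the line, ESR1, PGR and KRT5 had at most 2 counts and CDH1 at most 11. ERBB3 was at 5.08 to 16.5 CPM and EPCAM at 4.92 to 9.15 CPM. Nothing in the labels says that replicates came from separate cultures, so p-values measure the spread between these libraries, which may be technical. Among leukocyte genes, CD3E had at most 1 count and PTPRC was at 0.15 to 1.47 CPM, and the endothelial genes PECAM1 and VWF at most 3.65 CPM.

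Across the set, NOP56 was the gene that moved the same way under both hairpins. Its footprints gave the largest changes among the 10 genes in either hairpin, larger than those of its RNA, while its paralogue NOP58 showed no change past the test in any measure. In SH2 RNA, SNU13, ZNHIT6 and PIH1D1 fell, and in SH3 RNA, NOP56, NUFIP1 and RUVBL1 rose. A gene is said to have changed when edgeR's quasi-likelihood test gave an adjusted p-value under 0.05 over all genes tested (Benjamini-Hochberg). In RNA, SH2 changed 3 of 10 genes, all lower, where 61.4% of the 12710 genes tested changed and 30.4% were lower. SH3 changed 3, all higher, where 53.0% changed and 27.8% were higher. In RNA, 0 of the 10 changed in the same direction under both hairpins by edgeR (0 by DESeq2, and 1, NOP56, at an unadjusted p under 0.05), against 37.9% of all genes. Replicate numbers paired SH2 with SC, and with the number as a block in the fit of all 9 RNA libraries NOP56 and RUVBL2 also passed in SH2, which made 5 genes in SH2 and 1, NOP56, under both hairpins. In a fit of the SC and SH2 libraries alone, chosen after the data had been seen, the block gave 4 genes in SH2, with RUVBL2 and without NOP56. In footprints, SH2 changed 3 of 10 against 44.2% of 10345 genes, 1 of them higher (21.0% of all genes) and 2 lower (23.2%). SH3 changed 1, NOP56, against 35.9% of genes in either direction and 16.9% higher. NOP56 was also the only gene of the 10 whose footprints changed the same way under both, as 22.9% of all genes did. In TE, 1 of 10 rose under each hairpin, NOP56 both times, against 3.67% of 12531 genes in SH2 (1.46% higher and 2.21% lower), 0.750% in SH3 (0.399% higher and 0.351% lower) and 0.431% in the same direction under both. The counts in either direction for RNA and footprints were below the share among all genes, and the RNA counts in the direction that moved were near it. Without SH2 replicate 2 the RNA count in SH2 was 5, and without SC replicate 1 or SH3 replicate 3 the footprint count in SH3 was 2.

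The medians of the set stayed near those of all genes. In RNA the median log2 change was 0.03 in SH2 and 0.06 in SH3, beside 0.01 and 0.03 for all genes. In footprints it was -0.09 and 0.12, beside -0.0042 and -0.01. In TE it was -0.01 and -0.05, beside -0.0044 and -0.05. The SC libraries served both hairpin comparisons, and the values of the hairpins are therefore set side by side.

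**Figure D1:**
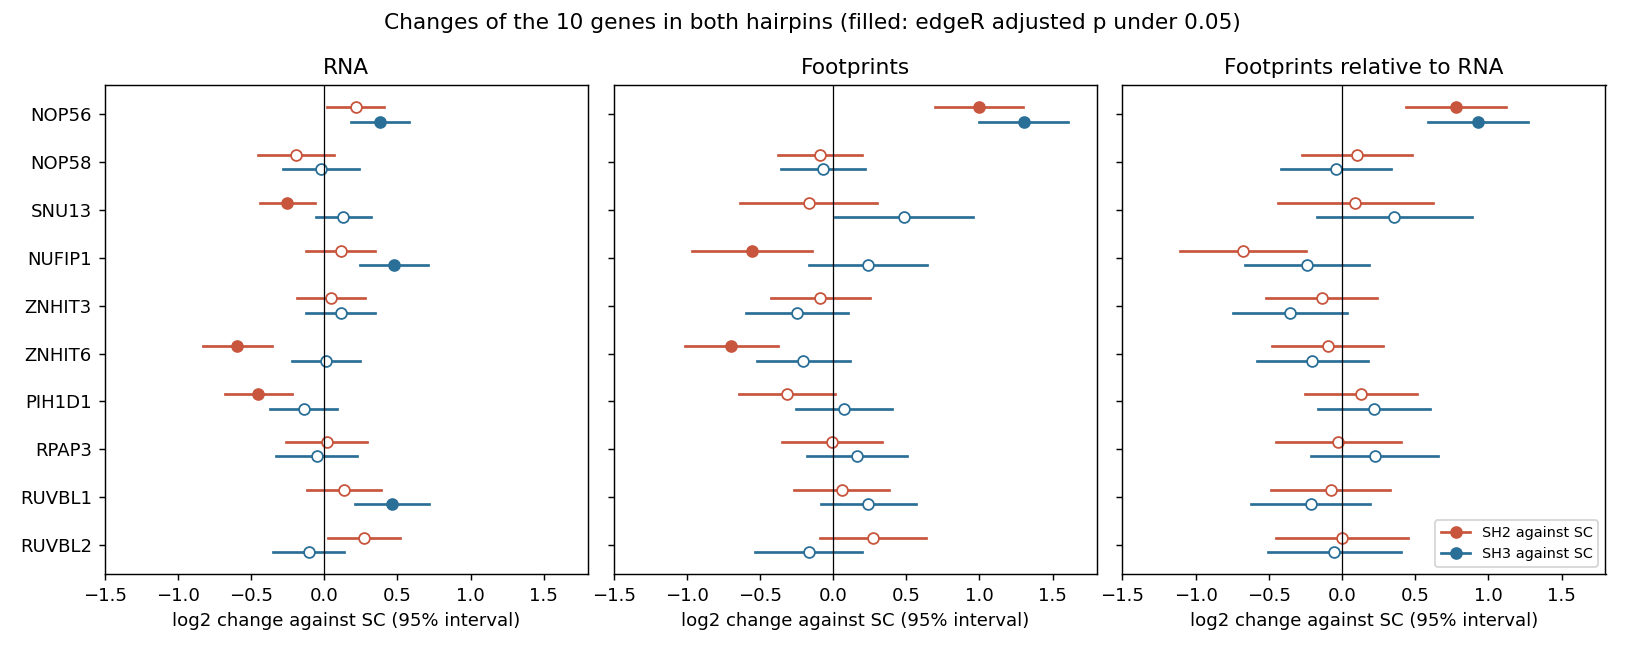
Log2 change against SC of each gene in RNA, footprints and footprints relative to RNA, with 95% intervals, for SH2 (red) and SH3 (blue). Filled points have an edgeR adjusted p under 0.05. NOP56 is filled in both hairpins for footprints and for footprints relative to RNA, with footprint changes of 1.00 and 1.30.

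NOP56 encodes the core protein that sits on the internal C'/D' motif of the guide RNA. Its RNA was 292, 305 and 325 CPM in SC, 345, 351 and 374 CPM in SH2, and 367, 428 and 407 CPM in SH3. All hairpin libraries lay above the SC libraries. The log2 change was 0.38 in SH3 (SE 0.09, edgeR adjusted p = 0.00307) and 0.21 in SH2 (SE 0.09, edgeR adjusted p = 0.0552), which missed the threshold. Scaled by plain totals rather than TMM, the SH2 change was 0.31 and passed it (edgeR adjusted p = 0.0114). With the replicate block it was 0.22 and passed in the fit of all 9 RNA libraries (edgeR adjusted p = 0.0370), and 0.20 without passing in the fit of SC and SH2 alone (edgeR adjusted p = 0.0579). The direct test between the hairpins gave -0.17 for SH2 minus SH3 (edgeR adjusted p = 0.161).

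NOP56 footprints were 229, 171 and 172 CPM in SC, 393, 383 and 368 CPM in SH2, and 421, 506 and 488 CPM in SH3. Means were 191 ± 33.2, 381 ± 12.8 and 472 ± 44.8 CPM (SD, n = 3 each). The groups were separated, with SC lowest and every SH3 library above every SH2 library. Footprints rose 1.99-fold in SH2 (log2 1.00, SE 0.14, edgeR adjusted p = 5.13e-05) and 2.47-fold in SH3 (log2 1.30, SE 0.14, edgeR adjusted p = 9.83e-06). The step between the hairpins, -0.31 for SH2 minus SH3, did not pass the test (edgeR adjusted p = 0.124). In the authors' deposited table the footprint changes of NOP56 were 1.00 and 1.31 on the log2 scale, and the RNA changes 0.20 and 0.36.

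Footprints per RNA of NOP56 were 0.783, 0.561 and 0.530 in SC, 1.14, 1.09 and 0.983 in SH2, and 1.15, 1.18 and 1.20 in SH3. Thus NOP56 mRNA carried fewer footprints per RNA than the median gene in control cells (36.7th percentile of 12519 genes) and more than it did in SC in all 6 hairpin libraries. However the libraries of a group were matched, TE was at most 0.783 in SC and at least 0.983 under either hairpin. TE rose by 0.78 on the log2 scale in SH2 (SE 0.16, edgeR adjusted p = 0.0115) and by 0.93 in SH3 (SE 0.16, edgeR adjusted p = 0.0107). By p-value NOP56 ranked 110 of 12531 genes in SH2 and 14 in SH3. These calls depended on single libraries: without SC replicate 3 the changes were 0.67 (adjusted p = 0.0870) and 0.81 (adjusted p = 0.0992), and neither passed. The call was also lost without SH2 replicate 1 (0.73, adjusted p = 0.0574), and in SH3 without SH3 replicate 2 (0.95, adjusted p = 0.0729) or replicate 3 (0.94, adjusted p = 0.0537).

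**Figure D2:**
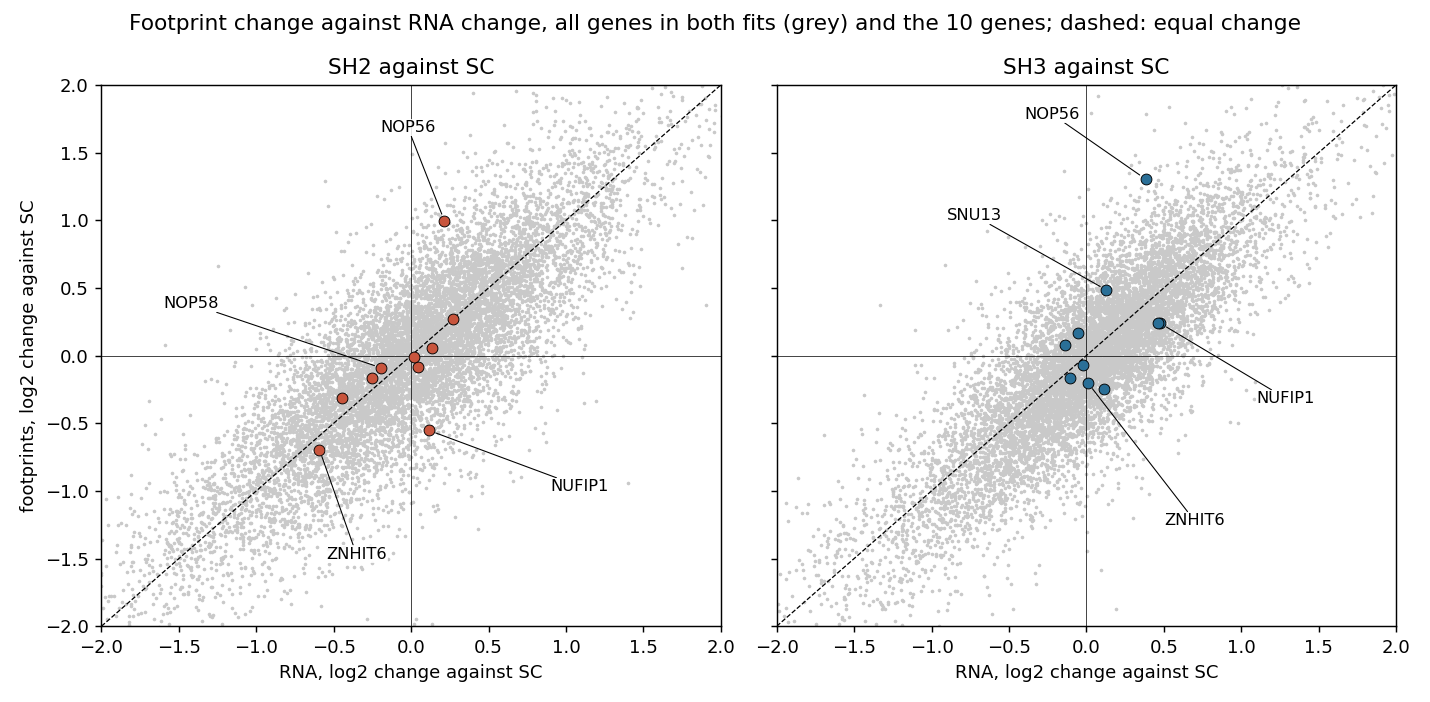
Footprint change (vertical) against RNA change (horizontal), both log2 against SC, for 10335 genes tested in both measures (grey) and the 10 genes (coloured). The dashed line marks equal change, and 279 genes in SH2 and 161 in SH3 lie outside the axes. NOP56 lies above the line in both panels, and NUFIP1 below it.

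NOP58, the paralogue of NOP56 that binds the terminal C/D motif, gave no change past the test in RNA, footprints or TE. Its RNA was 106, 116 and 121 CPM in SC, 85.9, 117 and 98.0 CPM in SH2, and 97.4, 125 and 116 CPM in SH3. Its footprints were 160, 151 and 145 CPM in SC, 163, 128 and 138 CPM in SH2, and 135, 158 and 141 CPM in SH3. The groups overlapped in both measures. The footprint change was -0.09 in SH2 (95% interval -0.38 to 0.19) and -0.07 in SH3 (95% interval -0.36 to 0.22), so an increase of the size seen for NOP56 lay outside both intervals. Without SH2 replicate 2, the RNA of NOP58 in SH2 was lower by test (log2 -0.32, edgeR adjusted p = 0.0323).

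The paralogues can be set against each other within a library, which removes library scaling. The log2 ratio of NOP56 to NOP58 counts in footprints was 0.52, 0.18 and 0.24 in SC, 1.27, 1.58 and 1.41 in SH2, and 1.64, 1.68 and 1.79 in SH3. In RNA the ratio averaged 1.43 ± 0.03 for SC, 1.84 ± 0.22 for SH2 and 1.83 ± 0.07 for SH3 (SD, n = 3 each). Neither hairpin group overlapped with SC in either measure. The shift of the mean footprint ratio was 1.11 in SH2 and 1.39 in SH3, against 0.42 and 0.41 in RNA. Each of these comparisons had the smallest p that 3 against 3 libraries allow (two-sided exact permutation p = 0.1, 0.185 adjusted over 24 pair tests), so none could pass the threshold. These ratios were added after the data had been seen.

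**Figure D3:**
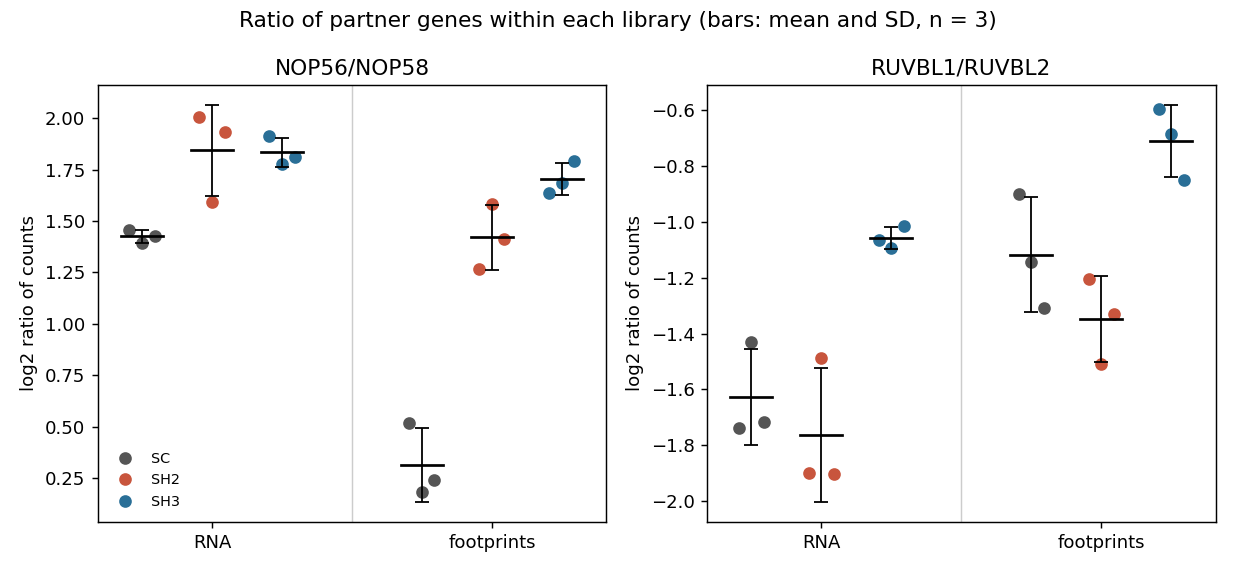
Log2 ratio of counts of NOP56 to NOP58 (left) and RUVBL1 to RUVBL2 (right) in each library, for RNA and footprints, with the mean and SD of 3 replicates. The NOP56 ratio in footprints is at most 0.52 in the SC libraries and at least 1.27 in the hairpin libraries, and the RUVBL1 ratio is highest in SH3.

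SNU13, which binds the kink-turn of the guide RNA and also the U4 spliceosomal RNA, differed between the hairpins. Its RNA was 155, 136 and 143 CPM in SC, 122, 118 and 123 CPM in SH2, and 149, 166 and 160 CPM in SH3. The SH2 libraries lay below all others, whereas SC and SH3 overlapped. The RNA fell by 0.25 on the log2 scale in SH2 (SE 0.09, edgeR adjusted p = 0.0214) and changed by 0.13 in SH3 (edgeR adjusted p = 0.229). The difference between the hairpins was -0.38 (SE 0.09, edgeR adjusted p = 0.00356). The fall in SH2 was not past the threshold with plain library totals (-0.16, adjusted p = 0.113), without SC replicate 1 (adjusted p = 0.0575) or without SC replicate 3 (adjusted p = 0.0508).

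SNU13 footprints spread widely, at 265, 214 and 146 CPM in SC, 156, 220 and 180 CPM in SH2, and 391, 263 and 224 CPM in SH3. The SC libraries alone covered the whole range of SH2, and replicate 1 of SH3 stood above the rest. Against SC the log2 changes were -0.17 in SH2 (edgeR adjusted p = 0.567) and 0.48 in SH3 (edgeR adjusted p = 0.0986). The hairpins differed by -0.65 (SE 0.22, edgeR adjusted p = 0.0439), a difference that missed the threshold when SH3 replicate 1 or 2, or SH2 replicate 1 or 3, was left out (adjusted p = 0.0704 to 0.221), or when footprint libraries were thinned to one depth (adjusted p = 0.0590). The change in SH3 passed the threshold without SC replicate 1 (0.72, adjusted p = 0.0141) or SH3 replicate 3 (0.65, adjusted p = 0.0487).

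**Figure D4:**
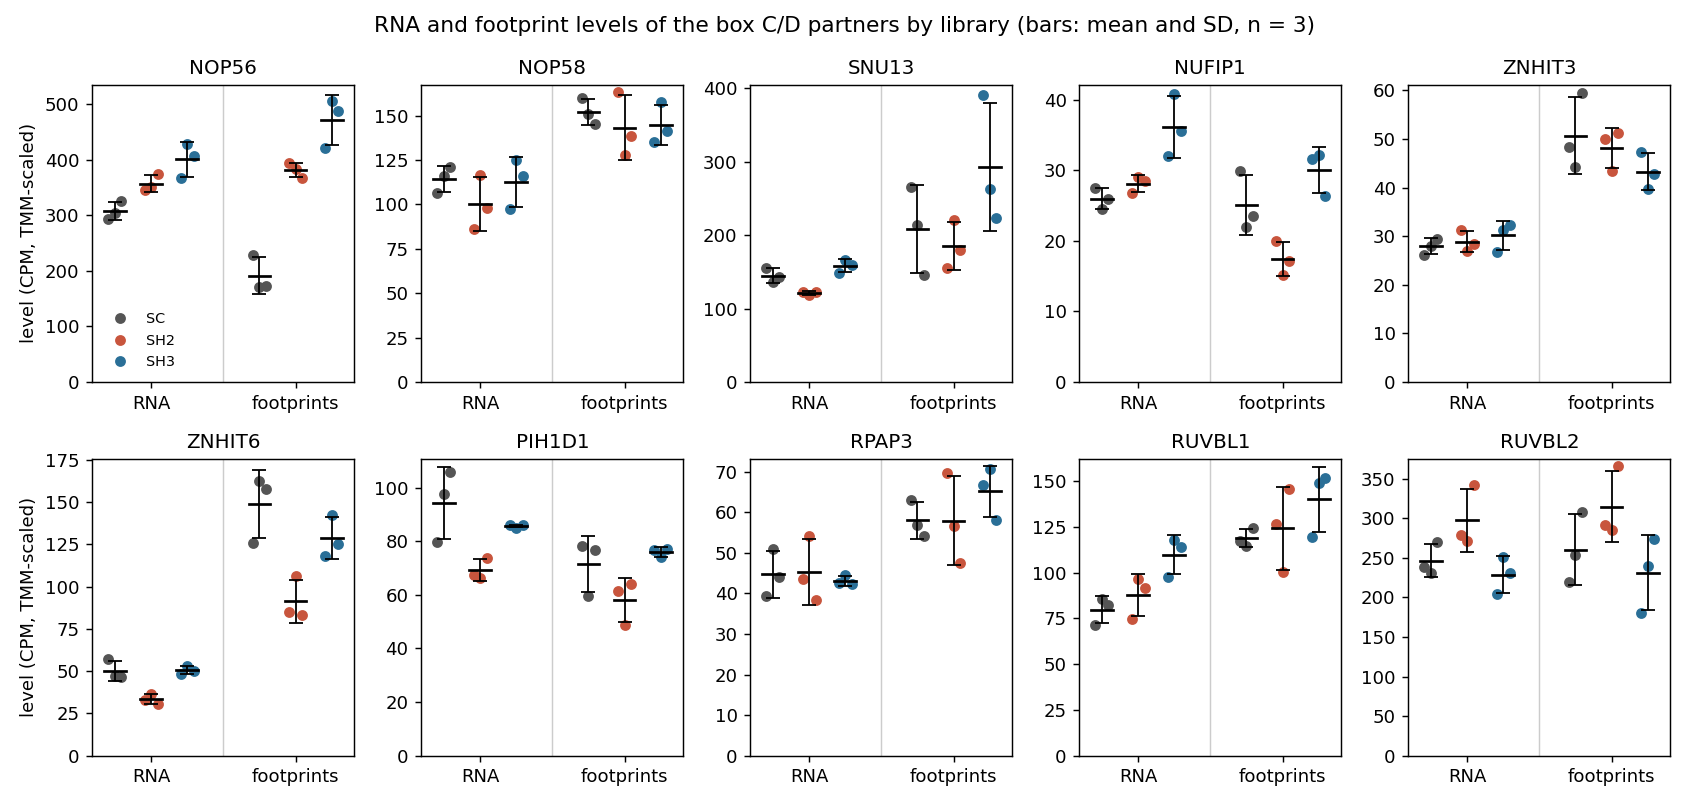
RNA and footprint levels in CPM of the 10 genes in each library, with SC in grey, SH2 in red and SH3 in blue; bars are the mean and SD of 3 replicates. NOP56 footprints are at 171 to 229 CPM in SC and at 368 to 506 CPM in the hairpin libraries, and ZNHIT6 is lowest in SH2 in both measures.

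Among the early assembly factors, NUFIP1 and ZNHIT6 changed and ZNHIT3 did not pass the test. NUFIP1 is the scaffold that bridges SNU13 and the NOP proteins. Its RNA was 27.5, 24.5 and 25.9 CPM in SC, 26.8, 29.0 and 28.4 CPM in SH2, and 32.0, 40.8 and 35.6 CPM in SH3. All SH3 libraries were above all others. The RNA rose 1.39-fold in SH3 (log2 0.48, SE 0.11, edgeR adjusted p = 0.00230), and the change in SH2 was 0.11 (edgeR adjusted p = 0.380). The hairpins differed by -0.36 (edgeR adjusted p = 0.0174), which was lost without SH2 replicate 1, SH3 replicate 2 or SH3 replicate 3 (adjusted p = 0.0546 to 0.103).

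NUFIP1 footprints were lowest in SH2, with no overlap with the other groups. They were 29.9, 21.9 and 23.4 CPM in SC, 20.0, 15.2 and 17.2 CPM in SH2, and 31.6, 32.2 and 26.3 CPM in SH3. These values rest on 52 to 184 counts per library. Footprints fell by 0.55 on the log2 scale in SH2 (SE 0.19, edgeR adjusted p = 0.0296) and changed by 0.24 in SH3 (edgeR adjusted p = 0.349). The direct difference was -0.79 (SE 0.20, edgeR adjusted p = 0.00945). TE was 1.09, 0.895 and 0.905 in SC and 0.746, 0.522 and 0.603 in SH2, apart however the footprint and RNA libraries of a group were matched (at least 0.797 and at most 0.746), and its change of -0.68 did not pass the test (SE 0.21, edgeR adjusted p = 0.0731). The footprint fall in SH2 was lost without SC replicate 1 (-0.39, adjusted p = 0.142), SH2 replicate 2 (-0.44, adjusted p = 0.133) or SH2 replicate 3 (-0.54, adjusted p = 0.0763), and with DESeq2 (-0.54, adjusted p = 0.0629). The direct difference missed the threshold without SH2 replicate 2 (adjusted p = 0.0518) or SH3 replicate 2 (adjusted p = 0.0502).

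ZNHIT6, also called BCD1, is needed for box C/D snoRNA accumulation, and it was the clearest loss in SH2. Its RNA was 57.1, 47.1 and 46.5 CPM in SC, 32.8, 36.4 and 30.7 CPM in SH2, and 48.2, 53.2 and 50.3 CPM in SH3. Its footprints were 126, 163 and 158 CPM in SC, 85.2, 106 and 82.9 CPM in SH2, and 118, 142 and 125 CPM in SH3. In both measures the SH2 libraries were below all others, and SC and SH3 overlapped. RNA fell by 0.59 on the log2 scale in SH2 (SE 0.11, edgeR adjusted p = 0.000335) and footprints by 0.69 (SE 0.15, edgeR adjusted p = 0.00158). In SH3 the values were 0.01 (edgeR adjusted p = 0.943) and -0.20 (edgeR adjusted p = 0.314). The hairpins differed by -0.60 in RNA (edgeR adjusted p = 0.000725) and by -0.49 in footprints (edgeR adjusted p = 0.0285), the latter lost when SH2 replicate 1 or 3 or SH3 replicate 2 or 3 was left out (adjusted p = 0.0588 to 0.128). TE of ZNHIT6 changed by -0.10 in SH2 and -0.20 in SH3, neither past the test (edgeR adjusted p = 0.839 and 0.702). In control cells ZNHIT6 had 2.96 footprint CPM per RNA CPM, at the 98.2nd percentile of 12519 genes, whose median was 0.812.

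ZNHIT3, the binding partner of NUFIP1, ran from 26.2 to 32.4 CPM in RNA and from 39.7 to 59.5 CPM in footprints over all libraries. The groups overlapped throughout. Its changes were 0.05 and 0.11 in RNA and -0.09 and -0.24 in footprints for SH2 and SH3, with edgeR adjusted p-values of 0.261 to 0.733. Its control TE lay at the 90.4th percentile, so both zinc finger HIT genes of the set were among the genes with many footprints per RNA. The other genes were at the 36.7th to 82.5th percentile.

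Among the R2TP genes the adaptor PIH1D1 fell in SH2, the ATPase RUVBL1 rose in SH3, and RPAP3, the scaffold that recruits HSP90, did not pass the test. PIH1D1 RNA was 79.6, 97.7 and 106 CPM in SC, 67.4, 66.1 and 73.8 CPM in SH2, and 85.9, 85.1 and 86.1 CPM in SH3. The SH2 libraries were below all others. The RNA fell by 0.45 on the log2 scale in SH2 (SE 0.11, edgeR adjusted p = 0.00226) and changed by -0.14 in SH3 (edgeR adjusted p = 0.286). The difference between hairpins, -0.31 (edgeR adjusted p = 0.0330), was lost without any 1 of SH2 replicates 1 and 2 and SH3 replicates 1, 2 and 3 (adjusted p = 0.0838 to 0.110). Without SC replicate 1, which was the lowest control, the fall in SH3 also passed the test (-0.27, adjusted p = 0.0360). PIH1D1 footprints changed by -0.32 in SH2 (edgeR adjusted p = 0.109) and 0.08 in SH3 (edgeR adjusted p = 0.734), and the former passed the test without SC replicate 2 (-0.42, adjusted p = 0.0345).

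RPAP3 ran from 38.3 to 54.0 CPM in RNA and from 47.6 to 70.5 CPM in footprints. Its groups overlapped, and its changes against SC lay between -0.05 and 0.16 in RNA and footprints.

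RUVBL1 and RUVBL2 are paired AAA+ ATPases that form mixed rings, yet their RNA moved in opposite senses between the hairpins. RUVBL1 RNA was 71.4, 85.7 and 82.2 CPM in SC, 74.7, 96.7 and 91.6 CPM in SH2, and 97.9, 118 and 114 CPM in SH3. It rose 1.38-fold in SH3 (log2 0.46, SE 0.12, edgeR adjusted p = 0.00425), where every library was above every other one, and changed by 0.14 in SH2 (edgeR adjusted p = 0.326). RUVBL2 RNA was 239, 231 and 270 CPM in SC, 279, 271 and 342 CPM in SH2, and 205, 251 and 231 CPM in SH3. For RUVBL2 it was SH2 that lay above the other groups, with a change of 0.27 (SE 0.11, edgeR adjusted p = 0.0523), and the change in SH3 was -0.11 (edgeR adjusted p = 0.455). The direct difference of SH2 minus SH3 was -0.33 for RUVBL1 (edgeR adjusted p = 0.0386) and 0.38 for RUVBL2 (edgeR adjusted p = 0.0180). Leaving out SC replicate 3, SH2 replicate 1 or 3, or SH3 replicate 2 or 3 ended the RUVBL1 difference (adjusted p = 0.0526 to 0.159), and leaving out SH2 replicate 3 or SH3 replicate 1 ended that of RUVBL2 (adjusted p = 0.0728 and 0.0691). With the replicate block RUVBL2 rose in SH2, by 0.27 over all 9 RNA libraries (edgeR adjusted p = 0.0251) and by 0.25 over SC and SH2 alone (edgeR adjusted p = 0.0224). Unblocked, the change of RUVBL2 in SH2 passed the test without SC replicate 3, SH2 replicate 1 or SH2 replicate 2 (adjusted p = 0.0358 to 0.0480).

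Mean footprints of both ATPases had the same order of groups as their RNA. RUVBL1 footprints changed by 0.06 in SH2 and 0.24 in SH3 (edgeR adjusted p = 0.780 and 0.238). RUVBL2 footprints were 219, 253 and 308 CPM in SC, 292, 286 and 366 CPM in SH2, and 180, 240 and 274 CPM in SH3, with SH2 minus SH3 at 0.44 (edgeR adjusted p = 0.0758). That difference passed the test without SC replicate 1 (0.43, adjusted p = 0.0467). Within libraries, the log2 ratio of RUVBL1 to RUVBL2 in RNA averaged -1.63 ± 0.17 for SC, -1.76 ± 0.24 for SH2 and -1.06 ± 0.04 for SH3 (SD, n = 3 each). In footprints it was -1.12 ± 0.21, -1.35 ± 0.15 and -0.71 ± 0.13. The SH3 libraries lay above both other groups in both measures (two-sided exact permutation p = 0.1, the smallest possible, 0.185 adjusted over 24 pair tests), and SC and SH2 overlapped.

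The direct comparison of the hairpins gave more changes in RNA than either comparison with SC. In RNA, 6 of 10 genes differed between SH2 and SH3, 5 of them lower in SH2 (SNU13, NUFIP1, ZNHIT6, PIH1D1 and RUVBL1) and 1 higher (RUVBL2), against 39.3% of all genes in either direction, 20.4% lower and 18.9% higher. In footprints 3 differed, all lower in SH2 (SNU13, NUFIP1 and ZNHIT6), against 23.8% of genes in either direction, 11.6% lower and 12.1% higher. In TE 0 of 10 differed by edgeR, 0 by DESeq2 and 0 at an unadjusted p under 0.05, against 0.0160% of genes by edgeR. The median RNA difference of the 10 genes was -0.24, beside 0.0047 for all genes. Without SH2 replicate 1, SH3 replicate 2 or SH3 replicate 3 the RNA count was 3, and the footprint count was 0 without SH3 replicate 2 and 1 without SH2 replicate 1 or 3.

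The neighbouring pathway genes were read from lists, against a background in RNA of 31.1% of all genes raised and 30.4% lowered by SH2, and 27.8% raised and 25.2% lowered by SH3. Of 15 partners of R2TP in the larger PAQosome chaperone, SH2 raised the RNA of 5 and lowered that of 4, and SH3 raised 2 and lowered 2. ZNHIT2, a RUVBL-binding assembly factor, rose under both (log2 1.38 and 1.03), as did TELO2 (0.35 and 0.35), a cochaperone for kinases of the PIKK family. POLR2E, an RNA polymerase subunit held in the complex (-0.61 and -0.39), and HSP90AA1 (-0.44 and -0.50) fell in RNA, and also in footprints (-0.86 and -0.67 for POLR2E, -0.49 and -0.68 for HSP90AA1). URI1, a prefoldin-like subunit picked out after its values were seen, fell from 145 ± 6.94 CPM in SC to 54.7 ± 10.2 CPM in SH2 (log2 -1.40, edgeR adjusted p = 3.62e-07) and changed by -0.03 in SH3 (edgeR adjusted p = 0.839).

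Genes of snoRNA maturation and transport moved both ways. Of 10 tested, RNA of 1 rose and 5 fell in SH2, and 4 rose and 5 fell in SH3. NOLC1, the nucleolar and Cajal body chaperone of snoRNPs, rose in RNA (0.41 and 0.35) and footprints (0.44 and 0.67) under both hairpins. XPO1, the export receptor that also carries snoRNPs to the nucleolus, fell in RNA (-1.26 and -0.49), as did TAF9 (-1.08 and -0.43), a TFIID subunit whose locus is shared with the gene AK6, so that its reads are uncertain. NOPCHAP1, the chaperone that hands NOP58 to RUVBL1 and RUVBL2, did not pass the test (0.19 and 0.12 in RNA). FBLL1, the fibrillarin paralogue, had at most 3 counts in any library and was not tested.

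The H/ACA particles convert uridine to pseudouridine. Of their 6 genes, RNA of 2 rose and 3 fell in SH2, and 1 rose and 3 fell in SH3. DKC1, the pseudouridine synthase, rose in RNA (0.43 and 0.54), and its partners NOP10 (-0.58 and -0.34) and NHP2 (-0.52 and -0.29) fell. Among all 12710 genes tested in RNA, 2496 rose and 2319 fell under both hairpins, together 37.9%. Of 5 genes for splicing factors, listed because SNU13 also binds U4 RNA, 3 rose and 1 fell in RNA under both hairpins. Among them RBM22 (0.84 and 0.85) and SART3 (0.53 and 0.28) were higher and PPIH (-0.71 and -0.57) lower. Their footprints changed in the same directions, by 1.04 and 0.88 for RBM22, 0.42 and 0.43 for SART3, and -0.78 and -0.48 for PPIH. PRPF31 was not analysed here. Of 28 genes of the INO80, SRCAP and TIP60 complexes, which also hold RUVBL1 and RUVBL2, RNA of 7 rose and 8 fell in SH2, and 9 rose and 5 fell in SH3. INO80B (1.16 and 1.09) and VPS72 (1.00 and 0.83) rose under both, and YEATS4 (-0.82 and -0.95) and UCHL5 (-0.90 and -0.65) fell. In footprints MORF4L1 rose (0.81 and 0.50), and UCHL5 (-1.13 and -0.99) and MRGBP (-0.82 and -1.13) fell.

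Of the 6 lists, that of snoRNA host genes had the largest share of lower genes in RNA. It was drawn up for box C/D hosts but is not limited to them. The list names 29 hosts, of which 8, most of them noncoding hosts such as GAS5 and SNHG1, were not analysed here. Of 21 tested, RNA of 2 rose and 13 fell in SH2, and 3 rose and 14 fell in SH3, with median log2 changes of -0.40 and -0.47. Their footprints moved less than their RNA. SH2 raised 3 and lowered 3 of 19, where 21.0% of all genes were higher and 23.2% lower in footprints. SH3 raised 1 and lowered 4, where 35.9% of all genes changed in either direction and 16.9% were higher. TE was higher in 6 and 4 of the 21 genes in SH2 and SH3, with medians of 0.41 and 0.44, where 1.46% and 0.399% of all genes were higher. TE was lower in 0 of them by edgeR, and in 0 at an unadjusted p under 0.05. Many of these hosts encode ribosomal proteins, and the list holds NOP56 and NOP58. Among the hosts, CHD4 rose in RNA under both hairpins (0.45 and 0.58), and EEF1B2, an elongation factor subunit, fell in RNA (-0.92 and -0.64) and footprints (-0.93 and -0.46). MYC, a transcription factor of ribosome biogenesis genes, rose in RNA under both hairpins (0.72 and 0.80). Footprints of MYC rose in SH3 (0.72, edgeR adjusted p = 0.000600) and changed by 0.10 in SH2 (edgeR adjusted p = 0.563). TE of MYC was lower in SH2 (-0.61, edgeR adjusted p = 0.0424) and changed by -0.07 in SH3 (edgeR adjusted p = 0.911).

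Across the 9 RNA libraries, the genes whose log2 CPM ran most like NOP56 were RFXANK (Pearson r = 0.980), PAAF1 (0.980) and PRPF19 (0.977) among 12709 genes. The closest to NOP58 were WDR35 (0.937), HSPA9 (0.933) and CRY1 (0.927), and the closest to SNU13 were ZNF250 (0.987), PSMD8 (0.963) and RRP12 (0.961). None of the 10 genes was in these lists. The 9 points share libraries, scaling and 3 treatment means, so these values only describe likeness.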

How the data were processed

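Cytoplasmic RNA and ribosome footprints were sequenced from MDA-MB-231 cells in 6 groups of 3 libraries. Raw counts per gene were used as deposited by the authors. The deposited table also holds a normalized signal from DESeq2 per the file headers, which was the count divided by 1 factor per library, and the authors' own log2 fold changes and p-values against SC. Their RD columns, identical in SH2 and SH3 for all 17017 genes, were not used. Bowtie 1.2.2 and DESeq2 are named in the submitters' processing notes without a role, and counting tool, annotation, treatment of reads that match several places and genome build are not given in the sources used here.

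Counts were filtered with filterByExpr (minimum count 10), scaled with TMM and tested with edgeR 4.0.16 (R 4.3.3, quasi-likelihood, two-sided, Benjamini-Hochberg over all genes tested). One fit held the 9 IN libraries and one the 9 RPF libraries. TE was tested as the RPF change minus the IN change in a fit of all 18. The SE is the log2 change over the root of F. Likeness used log2 CPM with a prior count of 2. Variation between replicates (root of the edgeR common dispersion) was 11.6% in RNA and 15.1% in footprints. Replicates of a group differed beyond counting noise (chi-square over degrees of freedom 3.55 to 58.7). Each library was counted as separate, though this spread may be technical. Counts were simulated with 200 genes changed by 1.5 (log2) in SH2 against SC, drawn from genes with over 200 footprint counts. Of these, 100% were recovered in RNA (12627 genes), 95.5% in footprints (10215 genes) and 96% in TE (12421 genes). Unchanged genes called were 7, 15 and 9. The largest change of the 10 genes was 1.30, so recovery at the sizes reported here was not tested.

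The 10 genes and all lists were chosen with earlier results of these data known. Named were all 10 genes, FBL, MYC, NOPCHAP1 and FBLL1, from each list up to 2 genes with the largest changes each way among those called under both hairpins, and the 3 genes most like NOP56, NOP58 and SNU13. Same-numbered SC and SH2 libraries deviated together (correlation 0.34 to 0.37 in RNA and 0.25 to 0.30 in footprints, over 0.1 in 3 of 3 pairs of each), so the numbers were taken as pairing these groups from the data, since the labels do not say what a number marks. Alternatives were other scaling, no filter, DESeq2 1.42.0, fits of only the groups compared, a replicate block, a threshold of 0.01 and each library left out. Thinned footprints, TMM over all 18 libraries, the block in SC and SH2 alone and the pair ratios were added after seeing the data.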

Additional observations from a re-analysis of the deposited data

Results flagged for a closer look

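Of the 10 genes, 6 gave different changes under SH2 and SH3 by the direct test of SH2 minus SH3 (edgeR, adjusted p under 0.05 over all genes tested), in RNA, footprints or both. SNU13 differed by -0.38 in RNA and -0.65 in footprints, NUFIP1 by -0.36 and -0.79, and ZNHIT6 by -0.60 and -0.49. PIH1D1 differed by -0.31 and RUVBL1 by -0.33 in RNA, and RUVBL2 by 0.38 in RNA, the other way. Among all genes tested, 39.3% differed between the hairpins in RNA and 23.8% in footprints. The residual FBL RNA was 5.67 CPM in SH2 and 3.49 CPM in SH3 on average (log2 difference 0.72, edgeR adjusted p = 0.242), and its part in these differences was not tested.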

How the results depend on the processing

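Of 19 alternatives, 12 moved at least one count of genes called among the 10 by over 1.5 times, 24 of 155 counts in all. In TE for SH2 the count was 1, and 2 with plain library totals and with DESeq2, where NUFIP1 joined NOP56. At an adjusted p under 0.01 it was 0 in both hairpins, 2 for RNA of SH2 against SH3, and 1 for footprints of SH2 against SH3. Without a filter on low counts the footprint count in SH3 was 2. With the replicate number as a block it was 5 for RNA in SH2, 2 for footprints in SH3 and 5 for footprints of SH2 against SH3. The numbers paired SH2 with SC, where the block changed no call beyond NOP56 and RUVBL2 in RNA, whether SH3 was in the fit or not. They were not taken as pairing SH3 with SC or with SH2, where the correlations were mixed. Same-numbered deviations correlated over 0.1 in 2 of 3 pairs of each comparison in RNA and in 1 of 3 of each in footprints. There the gains under the block were SNU13 in SH3 footprints (adjusted p = 0.0384) and, in footprints between hairpins, PIH1D1 (0.0362) and RUVBL2 (0.0119). In TE the block was the lysate and changed no call of the 10. NOP56 was then at edgeR adjusted p = 0.0344 in SH2 and only just under the threshold in SH3 (edgeR adjusted p = 0.0499). With 1 library left out, the counts ran from 2 to 5 for RNA in SH2, 3 to 4 for RNA in SH3, 3 to 6 for RNA between hairpins, 2 to 4 for footprints in SH2, 1 to 2 for footprints in SH3, 0 to 4 for footprints between hairpins, 0 to 1 for TE in either hairpin, and stayed at 0 for TE between them. Of 90 log2 changes, 31 passed the threshold in at least one setting, and 0 of these changed sign. The other 59 passed in none, and 25 of them changed sign in at least one, with values up to 0.14 in size. NOP56 footprints passed in all 18 alternatives in SH2 and all 17 in SH3 (0.93 to 1.16 in SH2 and 1.24 to 1.47 in SH3), and NOP56 TE in 15 of 18 in SH2 and 14 of 18 in SH3. Causes were not tested. The footprint depth limits NUFIP1, ZNHIT3 and RPAP3, with as few as 52 counts.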
